A study of Mus musculus with 6 samples.

Results

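The oligoadenylate synthetase (OAS) family was examined in sorted peripheral blood (PB) neutrophils of mice with and without a dental silk ligature. The 8 genes studied here as its members, *Oas1a*, *Oas1b*, *Oas1c*, *Oas1g*, *Oas2*, *Oas3*, *Oasl1* and *Oasl2*, were chosen by name from 29097 listed genes. The 3 libraries of the Lig group came from male C57BL/6 mice, 8 weeks of age, whose molars had carried silk ligatures for 14 days as a model of periodontitis. The 3 Ctrl libraries came from mice of the same strain, sex and age that were left untreated over the same 14 days. Each Smart-seq2 library was made from RNA of FACS-sorted neutrophils pooled from 5 mice, so differences between single mice within a pool could not be seen. Library totals ran from 52186555 to 57262379 counts assigned to genes. The question addressed here was how the family, and the pathway around it, differed between blood neutrophils of ligated and untreated mice.

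OAS proteins are interferon-induced sensors that bind double-stranded RNA and join ATP into short 2′-5′-linked oligoadenylates (2-5A). These oligoadenylates act as second messengers of the antiviral response. Some members, such as *Oasl1*, have lost the synthetase activity and act in other ways. In myeloid cells the genes are part of the response to type I interferon, in which the receptor signals through JAK kinases to transcription factors that bind the interferon-stimulated response element.

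All 8 genes passed the filter for testing, a mean of at least 1 FPKM (fragments scaled to exon length and library size) over the 6 libraries. With TMM scaling, 6 were higher in Lig (adjusted p under 0.05, edgeR), and their direction is relative to that scaling: with the libraries scaled on 20 mature neutrophil genes instead, 4 of these 6 had a negative log2 fold change and 0 were called higher, also at an unadjusted p under 0.05. Across the 10440 genes tested, 26.5% were called higher and 27.2% lower with TMM, and 0.651% higher and 88.1% lower with neutrophil scaling. The other members, *Oas1b* and *Oas1c*, were not called, and 0 of the 8 were called lower by edgeR with TMM, by DESeq2 or by limma. At an unadjusted p under 0.05 the count of lower members was 0 in edgeR with TMM, in DESeq2 and in limma on log2(FPKM + 1), and 1 in limma on log2(FPKM + 0.1) and in edgeR with library totals that leave out haemoglobin and immunoglobulin genes. With neutrophil scaling 3 of the 8 members were called lower in edgeR, *Oas1b*, *Oas1c* and *Oasl1*, a smaller part than among all genes. The TMM-normalized CPM (counts scaled to library size) of the groups did not overlap for 6 of the 8 genes, against 63.4% of all genes tested. The median log2 fold change was 1.60 over the 8 members and -0.095 over all genes tested. These are bulk RNA measurements, in which fewer cells of a type and less RNA per cell cannot be told apart.

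*Oas1a* and *Oas1g* encode the small synthetases of the family with a single catalytic unit. *Oas1a* (ENSMUSG00000052776, chr5:120896256-120907521, minus strand, GRCm38) was measured at 36.3, 34.5 and 30.9 CPM in Ctrl libraries 1, 2 and 3 and at 92.6, 104 and 94.5 CPM in Lig libraries 1, 2 and 3. The values within each group lay close together and those of the groups were far apart. With TMM scaling the log2 fold change of *Oas1a* was 1.52 (standard error 0.129, edgeR adjusted p = 4.94e-06), whereas scaling on the neutrophil genes gave -0.28. *Oas1g* (ENSMUSG00000066861, chr5:120876142-120887613, minus strand) was lower in the untreated mice, at 6.89, 8.18 and 9.01 CPM in the Ctrl libraries and 43.8, 36.5 and 35.3 CPM in the Lig libraries. Every Lig library stood well above every Ctrl library, and Lig replicate 1 was the highest. Its log2 fold change of 2.26 (standard error 0.205, edgeR adjusted p = 8.14e-06) was the highest in the family, with only 0.728% of all genes tested above it, and it was the member with the highest fold change under neutrophil scaling too, at 0.47 (adjusted p = 0.076). These paralogs share sequence: 730 of the 1786 distinct stretches of 100 bases in the *Oas1a* transcripts (40.9%) also occur in those of *Oas1g*, where they make up 31.2%. Counts for this pair are therefore uncertain, because reads from the shared stretches may have been given to either gene. There were 19.0, 23.7 and 29.2 *Oas1g* counts per 100 *Oas1a* counts in the Ctrl libraries and 47.3, 35.0 and 37.3 in the Lig libraries, a ratio that does not depend on how libraries are scaled and that did not overlap between the groups.

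*Oas1b* and *Oas1c* stood apart from the rest of the family. *Oas1b* is known for its full-length allele, which protects wild mice from flaviviruses, while C57BL/6 mice carry a truncated form, and GENCODE M21 lists the gene as a polymorphic pseudogene. *Oas1b* (ENSMUSG00000029605, chr5:120812635-120824158, plus strand) was at 3.02, 2.37 and 3.65 CPM in the Ctrl libraries and 3.04, 2.10 and 2.08 CPM in the Lig libraries, from 98 to 213 counts per library. The groups overlapped, with Lig replicate 1 among the Ctrl values. The log2 fold change was -0.32 with a standard error of 0.391 (edgeR adjusted p = 0.502), and -2.11 with neutrophil scaling (adjusted p = 0.000441, called lower). *Oas1c* (ENSMUSG00000001166, chr5:120800194-120812514, minus strand) was at 3.30, 3.04 and 4.44 CPM in Ctrl and 1.91, 4.86 and 4.26 CPM in Lig. The Lig libraries lay on both sides of the Ctrl libraries, replicate 1 below them all and replicate 2 above. The log2 fold change was 0.033 with a standard error of 0.430 (edgeR adjusted p = 0.953), and its sign was negative in 10 of 16 alternatives, among them library totals (-0.29), 4 of the 6 fits without a library (Ctrl replicate 1, -0.018; Ctrl replicate 2, -0.058; Lig replicate 2, -0.22; Lig replicate 3, -0.085) and neutrophil scaling (-1.76, adjusted p = 0.00268), the only one in which it was called. With counts this low, differences as small as the standard errors cannot be told from 0.

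*Oas2* and *Oas3* encode the larger synthetases, built from repeats of the OAS unit, and OAS3 is known as a sensor of long double-stranded RNA. *Oas2* (ENSMUSG00000032690, chr5:120730333-120749853, minus strand) was at 39.6, 23.3 and 31.5 CPM in Ctrl and 101, 100.2 and 120.4 CPM in Lig. *Oas3* (ENSMUSG00000032661, chr5:120753098-120777661, minus strand) was at 71.6, 46.5 and 86.9 CPM in Ctrl and 276, 221 and 259 CPM in Lig. Ctrl replicate 2 was the lowest library for both genes, the Ctrl values were more spread than those of the other members called, and the groups did not overlap. With TMM scaling *Oas2* rose by 1.77 (standard error 0.190, edgeR adjusted p = 2.7e-05) and *Oas3* by 1.88 (standard error 0.204, edgeR adjusted p = 2.88e-05) on the log2 scale, against -0.023 and 0.099 with neutrophil scaling. Without Ctrl replicate 2 the TMM-scaled values were 1.61 and 1.69, and both genes were still called higher.

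*Oasl1* and *Oasl2* encode OAS-like proteins with ubiquitin-like repeats at the C-terminus; OASL1 has no synthetase activity and is known to hold back translation of *Irf7* mRNA, while mouse OASL2 has kept the enzymatic activity. *Oasl1* (ENSMUSG00000041827, chr5:114923240-114937915, plus strand) was at 50.0, 57.3 and 56.7 CPM in Ctrl and 133, 152 and 147 CPM in Lig. *Oasl2* (ENSMUSG00000029561, chr5:114896936-114912234, plus strand), the most abundant member in CPM, was at 155, 122 and 151 CPM in Ctrl and 432, 467 and 475 CPM in Lig. For both genes the lowest Lig library was above 2 times the highest Ctrl library. With TMM scaling *Oasl1* rose by 1.40 (standard error 0.120, edgeR adjusted p = 5.58e-06) and *Oasl2* by 1.69 (standard error 0.116, edgeR adjusted p = 1.34e-06) on the log2 scale. With neutrophil scaling the values were -0.40 (adjusted p = 0.0123, called lower) and -0.10 (adjusted p = 0.404). The antisense gene *Gm13822* overlaps the start of *Oasl1* by 38 bases and moved from a mean of 3.95 to 14.1 CPM (TMM log2 fold change 1.83, edgeR adjusted p = 0.00025; 0.037 and not called with neutrophil scaling); whether the counting used strand is not given in the sources used here, so reads of this stretch cannot be assigned with certainty.

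**Figure D1:**
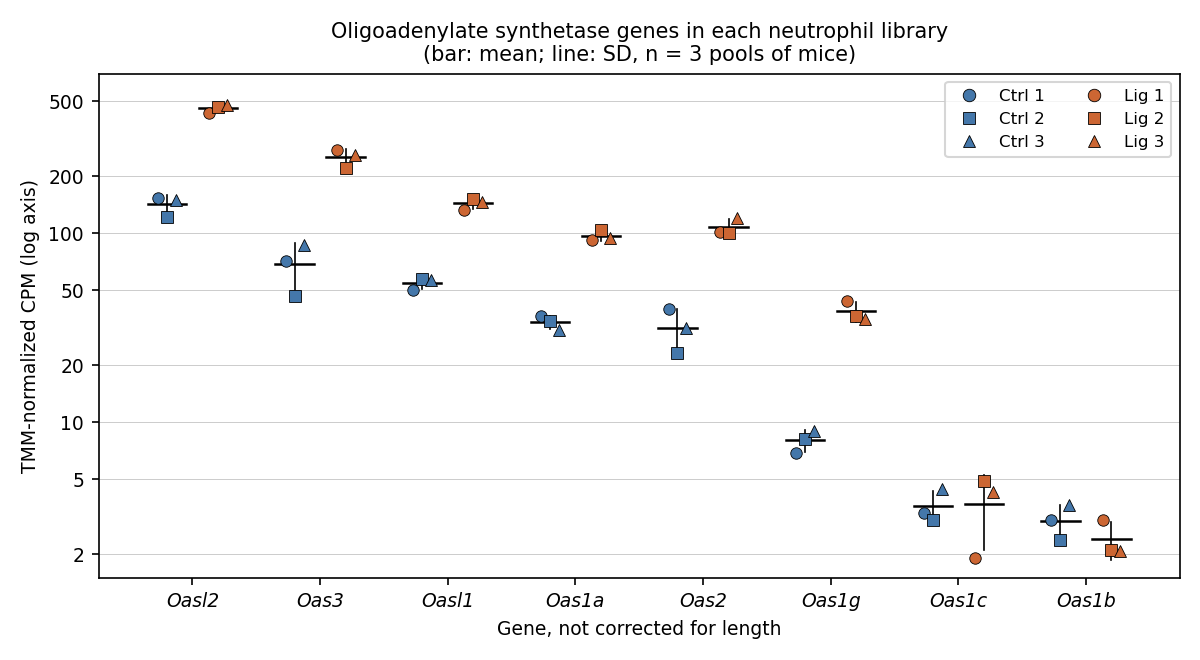
TMM-normalized CPM on a log axis for each member in the 3 Ctrl (blue) and 3 Lig (orange) libraries, with the group mean (bar) and SD (line). *Oas1g* moves from 6.89 to 9.01 CPM in Ctrl up to 35.3 to 43.8 CPM in Lig, while *Oas1b* and *Oas1c* overlap between the groups; on a scale set by neutrophil genes *Oas1a*, *Oas2*, *Oasl1* and *Oasl2* lie slightly below 0 in log2 fold change and *Oas1c* (-1.76) and *Oas1b* (-2.11) far below it.

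Levels were compared between members per length, as deposited FPKM. In Ctrl the order was *Oasl2* at 23.0 ± 3.18 FPKM, *Oasl1* at 21.6 ± 1.28 and *Oas1a* at 18.5 ± 1.68, then *Oas3* at 9.98 ± 3.03, *Oas2* at 7.31 ± 2.01, *Oas1g* at 3.53 ± 0.438, *Oas1b* at 1.55 ± 0.335 and *Oas1c* at 1.54 ± 0.319 (SD, n = 3). The ranges of *Oasl2* and *Oasl1*, of *Oasl1* and *Oas1a*, of *Oas3* and *Oas2*, and of *Oas1b* and *Oas1c* overlapped, so these neighbours did not differ beyond their spread. In Lig the order was the same down to *Oas1g*: *Oasl2* at 59.9 ± 3.23 FPKM, *Oasl1* at 46.0 ± 3.43, *Oas1a* at 43.0 ± 2.96, *Oas3* at 29.7 ± 3.18, *Oas2* at 20.1 ± 2.18 and *Oas1g* at 13.7 ± 1.57, with *Oas1c* at 1.27 ± 0.546 and *Oas1b* at 0.996 ± 0.222 (SD, n = 3). Here *Oasl2* stood clear of *Oasl1*, *Oas3* stood clear of *Oas2*, and *Oasl1* still overlapped *Oas1a*. The order depends on the length used: deposited FPKM divide by the union of annotated exons, 6374 bases for *Oasl2*, whose longest coding transcript has 3123. Per longest coding transcript, a length chosen after the values were seen, *Oasl2* was at 47.0 in Ctrl and 122 in Lig, and *Oas3* passed *Oas1a* in Lig, with 44.4 ± 4.76 against 43.0 ± 2.96 (SD, n = 3), a difference within their spread.

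Summed over the 8 members, the level was 91.8, 78.3 and 91.1 FPKM in the Ctrl libraries and 207, 217 and 219 FPKM in the Lig libraries, a log2 difference of 1.30. The lowest sum was in Ctrl replicate 2, and the groups did not overlap; with FPKM scaled on the neutrophil genes the difference was -0.18. The makeup of this sum does not depend on how libraries are scaled. The share of *Oas1g* was 3.35%, 4.53% and 4.34% in Ctrl and 7.47%, 6.02% and 5.74% in Lig. In the opposite direction, the share of *Oas1b* went from a mean of 1.77% ± 0.261 to 0.466% ± 0.119 and that of *Oas1c* from 1.76% ± 0.278 to 0.588% ± 0.243 (SD, n = 3). For these 3 genes the shares of the groups did not overlap. The shares of the other 5 members overlapped between the groups: the means were 26.4% and 27.9% for *Oasl2*, 25.0% and 21.4% for *Oasl1*, 21.4% and 20.0% for *Oas1a*, 11.3% and 13.9% for *Oas3*, and 8.32% and 9.35% for *Oas2*, in Ctrl and Lig. So the shares of these 5 members did not separate the groups, while *Oas1g* took a larger part of the family and *Oas1b* and *Oas1c* a smaller one.

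The label of the sorted cells was checked against marker genes. Mature neutrophil markers were present in all 6 libraries: the 20 genes, among them *S100a8*, *Cxcr2* and *Ly6g*, took 1.75%, 1.86% and 1.89% of counts in Ctrl and 5.31%, 5.58% and 5.26% in Lig, and 20 of 20 were called higher in Lig with TMM scaling (median log2 fold change 1.84). The gene named for each list is the most abundant by mean FPKM, here *S100a9*, which rose by 2.03. Markers of other cells were present as well and moved with the groups. The 11 erythroid genes took 14.8%, 15.2% and 15.1% of counts in Ctrl and 1.63%, 1.57% and 1.60% in Lig, with 10 of 10 tested lower and *Hba-a1* falling by 2.80. The 15 B cell genes, with *Cd74* at a log2 fold change of -2.27, took 2.84%, 3.12% and 2.91% in Ctrl and 0.459%, 0.469% and 0.469% in Lig, with 15 of 15 lower. The 16 T cell genes, with log2 fold changes from -3.38 to -1.32 and -2.50 for *Trbc2*, took 0.120%, 0.122% and 0.112% in Ctrl and 0.0207%, 0.0212% and 0.0174% in Lig, with 16 of 16 lower. Thus the Ctrl libraries held more RNA of erythroid and lymphoid marker genes, relative to the total, than the Lig libraries did. The study lysed red cells of the blood and sorted neutrophils as positive for CD45, CD11b and Ly6G. These steps would remove erythroid, B and T cells, and any other cell that is not positive for all of these markers. Of the 14 monocyte and macrophage genes, 13 were higher with TMM scaling (median 1.04). Neutrophil scaling called 0 of them higher and 13 lower (median -0.76), against 88.1% of all genes lower. Their TMM-scaled sum went from 5852, 6844 and 5794 CPM in Ctrl to 11997, 13116 and 11830 in Lig, with *Lyz2* at 1.12. All 10 platelet genes were higher with TMM scaling (median 1.24), whereas 0 were higher and 9 lower with neutrophil scaling (median -0.55). Their TMM-scaled sum was 1062, 1249 and 1242 CPM in Ctrl and 2721, 2643 and 3215 in Lig, with *Ppbp* at 1.23. Of 10 NK cell genes, 4 were higher and 0 lower with TMM scaling, whereas neutrophil scaling called 0 higher and all 10 lower. Their TMM-scaled sum was 636, 737 and 660 CPM in Ctrl and 740, 790 and 730 in Lig. Their share of counts was 0.0722%, 0.0812% and 0.0737% in Ctrl and lower, at 0.0658%, 0.0704% and 0.0661%, in Lig. *Nkg7* was at -0.15 and not called with TMM scaling, but was called lower with library totals (-0.47). The 10 dendritic cell genes took 0.0184%, 0.0177% and 0.0195% of counts in Ctrl and 0.00966%, 0.0113% and 0.0121% in Lig. Of 3 tested, 1 was higher and 1 lower with TMM scaling, and all 3 were lower with neutrophil scaling. *Bst2* was not called with TMM (0.0034), and its sign was negative in 8 of 17 alternatives. It was also called lower with totals that leave out haemoglobin and immunoglobulin genes (-0.54, edgeR adjusted p = 0.0291). The eosinophil and basophil genes took 0.00602%, 0.00535% and 0.00607% in Ctrl and 0.00612%, 0.00620% and 0.00821% in Lig. Of 8 tested, 2 were higher and 1 lower with TMM scaling, and 0 higher and 5 lower with neutrophil scaling. *Ear2* was at 0.81, a call lost without Ctrl replicate 1 (edgeR adjusted p = 0.0528) or Lig replicate 3 (0.0682). This call was also lost with library totals (edgeR adjusted p = 0.0997), with totals that leave out haemoglobin and immunoglobulin genes (0.347) and in both limma fits. Neutrophil scaling called *Ear2* lower (-0.98). All 29097 listed genes had at least 1 count over the 6 libraries, so a marker without any count would not have been listed. The part of these other cells in the difference of the OAS family was not tested.

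Ratios of counts within a library give the family against these markers without any scaling. There were 2.37, 1.76 and 2.21 counts of the 8 members per 100 counts of the mature neutrophil genes in the Ctrl libraries and 1.81, 1.74 and 1.96 in the Lig libraries. The groups overlapped, with Ctrl replicate 2 among the Lig values, so relative to the summed neutrophil marker counts the family as a whole did not separate the groups. This sum weighs genes by their counts, whereas the neutrophil scaling weighs the 20 genes alike. *S100a8* and *S100a9* had means of 4709 and 3599 of 16400 TMM-scaled CPM in Ctrl. In Lig these means were 18147.5 and 14714 of 60183. With neutrophil scaling *S100a9* was itself called higher (0.24, edgeR adjusted p = 0.0294). Against 3 lists named for other cells the family was higher in every Lig library than in any Ctrl library. Per 100 counts of the monocyte and macrophage genes, its means were 5.68 in Ctrl and 8.98 in Lig. They were 29.4 and 38.8 for the platelet genes and 51.4 and 147 for the NK cell genes. *Lyz2* made up most of the monocyte and macrophage sum, with a mean of 4077 of 6163 TMM-scaled CPM in Ctrl and 8856 of 12314.5 in Lig. Whether the *Lyz2* RNA came from neutrophils was not tested. Relative to the neutrophil genes the members of the family did not all behave alike. *Oas1g* had 0.448, 0.484 and 0.533 counts per 1000 neutrophil marker counts in Ctrl and 0.733, 0.583 and 0.606 in Lig, higher in every Lig library. *Oasl1* went the other way, with 3.25, 3.39 and 3.35 in Ctrl and 2.22, 2.42 and 2.53 in Lig. *Oas1a*, *Oas1b* and *Oas1c* were also lower in every Lig library than in any Ctrl library, whereas *Oas2*, *Oas3* and *Oasl2* overlapped. The share of all genes without overlap was not computed for this ratio. With neutrophil scaling 88.1% of all genes tested were called lower and 0.651% higher, so a lower value was the common state and does not mark out these members. Taken over every tested gene, the median shift was -1.89 under neutrophil scaling, -0.42 with library totals and -0.64 with totals that leave out haemoglobin and immunoglobulin genes. A scaling moves all genes alike, so the distance of a member from this median is the same under each scaling by construction and says nothing about stability. Over the filters, tools and left-out libraries that can move it, the distance ran from 2.01 to 2.55 for *Oas1g*, 1.75 to 2.18 for *Oas3*, 1.63 to 2.05 for *Oas2*, 1.55 to 1.97 for *Oasl2*, 1.39 to 1.81 for *Oas1a* and 1.27 to 1.68 for *Oasl1*. It ran from -0.44 to -0.040 for *Oas1b* and crossed 0 for *Oas1c*, from -0.13 to 0.43.

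**Figure D2:**
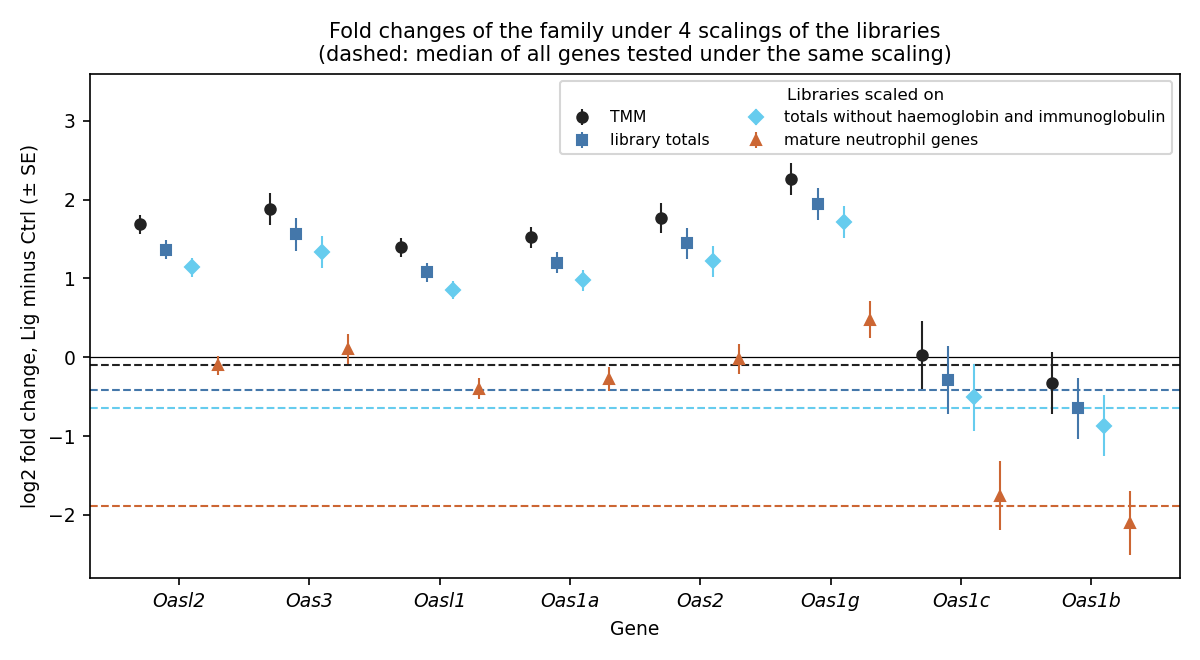
Log2 fold change (Lig minus Ctrl, ± SE) of each member in edgeR with 4 scalings of the libraries, with the median of all genes tested under the same scaling as a dashed line. The 6 members called with TMM fall between -0.40 and 0.47 under neutrophil scaling (triangles), with the all-gene median at -1.89; the distance from the dashed line is alike under each scaling by construction.

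Of 3 tested genes around the 2-5A pathway, 1 was lower in Lig and 2 were not called with TMM scaling, and all 3 were called lower with neutrophil scaling, as were 88.1% of all genes. *Abce1*, a ribosome recycling factor that is also tied to this pathway, was at 30.1, 17.5 and 23.8 CPM in Ctrl and 5.69, 12.1 and 9.87 CPM in Lig. Every Lig library was below every Ctrl library, lowest in replicate 1. The log2 fold change was -1.37 with TMM scaling (standard error 0.317, edgeR adjusted p = 0.00443), and the sign was the same under every scaling tried. *Pde12* and *Akap7*, whose products can degrade 2-5A, had log2 fold changes of 0.21 (standard error 0.148) and 0.54 (standard error 0.334) with TMM scaling and of -1.59 and -1.25 with neutrophil scaling, and both were below 0 with totals that leave out haemoglobin and immunoglobulin genes (-0.34 and -0.0093, not called). *Enpp1* did not pass the filter.

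Of 9 tested genes among the other sensors of double-stranded RNA and their partners, 6 were higher and 2 lower with TMM scaling, with a median of 0.85, whereas with neutrophil scaling 7 of the 9 were called lower and 0 higher, *Ifih1* and *Prkra* being the exceptions. The RNA helicase gene *Ifih1* (MDA5) rose by 1.33 (edgeR adjusted p = 0.00111), *Dhx58* (LGP2) by 1.07 (0.00216), *Zbp1* by 0.93 (0.00132) and *Ddx58* (RIG-I) by 0.85 (0.00433). Of these 4 only *Ifih1* was still called with totals that leave out haemoglobin and immunoglobulin genes, where the adjusted p was 0.057 for *Dhx58*, 0.0834 for *Zbp1* and 0.213 for *Ddx58*; the call of *Ddx58* was also lost in limma (0.0617 and 0.0864). *Mavs*, the mitochondrial adaptor of the helicases, fell by 1.35 (edgeR adjusted p = 0.000553), and *Tarbp2*, which encodes an RNA-binding partner of Dicer and PKR, fell by 1.01 (0.0077). The calls of *Eif2ak2* (PKR; 0.61, edgeR adjusted p = 0.0317) and *Adar* (0.46, 0.033) were less firm, being lost in 4 of the 6 fits that left out a library, at adjusted p of 0.0519 to 0.0853 without Ctrl replicate 1, Ctrl replicate 2, Lig replicate 2 or Lig replicate 3 for *Eif2ak2* and 0.063 to 0.0822 without Ctrl replicate 2 or any Lig replicate for *Adar*. Both calls were also lost with library totals (adjusted p = 0.261 for *Eif2ak2* and 0.479 for *Adar*), with totals that leave out haemoglobin and immunoglobulin genes (0.811 and 0.682) and in both limma fits, and that of *Adar* with a mean of at least 5 FPKM (0.135) and with no filter (0.068). *Prkra* was not called (1.27, standard error 0.579; -0.50 with neutrophil scaling), but was without Ctrl replicate 3 (2.25, adjusted p = 0.00739) and with the replicate number as a block (1.60, 0.0365).

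Upstream, 7 of 11 genes of the type I interferon receptor and its signalling were higher and 1 lower with TMM scaling (median 0.62). *Irf7*, *Irf1* and *Irf9*, transcription factors of the interferon response, rose by 1.16, 1.14 and 1.11, the feedback protease gene *Usp18* by 1.14 and the receptor chain *Ifnar2* by 0.97; under neutrophil scaling all 5 were called lower, from -0.63 for *Irf7* to -0.82 for *Ifnar2*, as were 11 of the 11 genes. With TMM scaling, each of these 5 changes was smaller than that of any of the 6 OAS genes called. Under neutrophil scaling each was larger in size, since those 6 OAS genes lay between -0.40 and 0.47. The other 2 genes called higher were less firm. *Ifnar1* (0.62) was not called with library totals (adjusted p = 0.15), with totals that leave out haemoglobin and immunoglobulin genes or in limma. *Jak1* (0.50, edgeR adjusted p = 0.0192) was not called under these settings either, nor with a mean of at least 5 FPKM (0.094), with no filter (0.0645), without Ctrl replicate 3 (0.0652) or without Lig replicate 3 (0.0554), while *Stat2* was called only in some alternatives, such as without Ctrl replicate 1 (0.66, 0.0169). *Irf3* was lower in every Lig library but not called (-0.39, edgeR adjusted p = 0.0683), and was called lower in 7 of 17 alternatives, such as library totals (-0.71, 0.00415). *Socs1*, an inhibitor of JAK signalling, fell by 0.55 (edgeR adjusted p = 0.0149), a call lost without Lig replicate 2 (adjusted p = 0.0582). Of the 35 interferon-stimulated genes tested, 24 were higher and 1 lower with TMM scaling (median 0.93), and 0 were higher and 27 lower with neutrophil scaling (median -0.86). The highest were *Ifi204* (1.91), *Ddx60* (1.91) and *Rtp4* (1.77), none of them called with neutrophil scaling (0.12, 0.12 and -0.021), and the lowest *Phf11b* (-0.89, called lower except with no filter, adjusted p = 0.0605), *Mx1* (-0.21) and *Ifi47* (-0.18), the latter pair not called, though *Ifi47* was called lower with library totals (-0.49). The sign of *Mx1* turned without Ctrl replicate 1 (0.066) or Lig replicate 1 (0.30), and that of *Ifi47* without Ctrl replicate 2 (0.026). For every 100 counts of this list, which holds no OAS member, there were 18.1, 14.4 and 18.0 counts of the 8 members in the Ctrl libraries and 30.1, 28.4 and 30.2 in the Lig libraries. Every Lig library thus held more OAS RNA relative to the interferon-stimulated list than any Ctrl library. This ratio is independent of scaling but not of the mix of cells. Marker RNA of other cells differed between the groups, and its part in the ratio was not tested.

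The genes with profiles most like 2 of the members were taken by the distance between mean-centred log2(CPM + 1) values over the 6 libraries, among all tested genes outside the family. For *Oasl2* they were *Fes*, *Gm15448*, *Gsr*, *Ccr1* and *Trps1*, at distances of 0.118 to 0.170. For *Oas1g* they were *Cpne2*, *Mmp19*, *Retnlg*, *Stfa2l1* and *Pde7b*, at 0.262 to 0.322. None of these 10 lies on chromosome 5 or in the list of interferon-stimulated genes, and *Retnlg* is among the mature neutrophil markers.

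The family lies on chromosome 5 in a pair of loci (GENCODE M21, GRCm38). *Oasl2* and *Oasl1* are neighbours on the plus strand, and *Oas2*, *Oas3* and the *Oas1* genes form a cluster from 120730333 to 120921652. Within that cluster the changes did not follow position in a simple order: *Oas2* and *Oas3* at one end and *Oas1g* and *Oas1a* near the other were higher with TMM scaling, and *Oas1c* and *Oas1b*, which are transcribed away from each other in between, were not called. Of the other *Oas1* paralogs of this cluster, *Oas1f* had 0 counts in 5 libraries and 5 counts in Lig replicate 3 and was not tested. *Oas1d*, *Oas1e* and *Oas1h* were not among the 29097 listed genes.

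**Figure D3:**
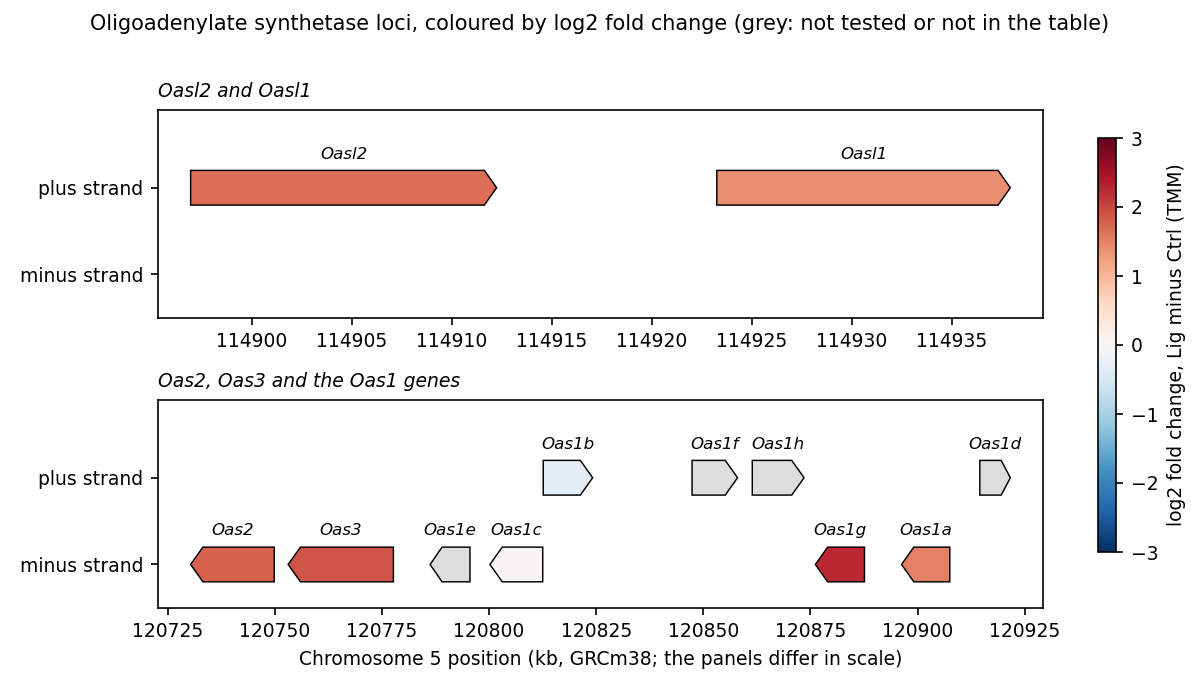
Map of the OAS loci on chromosome 5 (GRCm38, kb), arrows pointing in the direction of transcription and coloured by the log2 fold change with TMM scaling, grey where a gene was not tested or not listed. The genes called higher flank *Oas1c* (0.033) and *Oas1b* (-0.32); with neutrophil scaling *Oas1a*, *Oas2*, *Oasl1* and *Oasl2* turn slightly negative, and *Oas1c* (-1.76), *Oas1b* (-2.11) and *Oasl1* (-0.40) are called lower.

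Promoter windows, from 250 bases before to 50 bases after each start, were available from RefSeq (GRCm38.p6) for 6 of the 8 members (not *Oas1b* and *Oas2*) and were searched on both strands for the interferon-stimulated response element, here the letters GAAA, any 2 bases, then GAAA, and for the gamma-activated site TTCNNNGAA. The response element letters occur in 3.44% of all 32851 windows of this length and the gamma-activated letters in 8.3%. The response element was found in *Oas1a*, *Oas1g*, *Oas1c* and *Oas3*, and the letters were not in the windows of *Oasl1* and *Oasl2*, both called higher. The gamma-activated letters were found only in *Oas1a*, 98 bases before the start. The stretches around the response elements are shown because the 2 *Oas1* members that rose and the one that did not hold the same letters; capitals mark the response elements, which overlap in the *Oas1* genes, and each is printed 5′ to 3′ on the strand of its gene, all of them on the minus strand, at chr5:120907510-120907565 for *Oas1a*, chr5:120887596-120887651 for *Oas1g*, chr5:120812593-120812648 for *Oas1c* and chr5:120777705-120777754 for *Oas3*.
Oas1a: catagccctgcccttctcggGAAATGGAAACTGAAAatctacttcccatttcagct
Oas1g: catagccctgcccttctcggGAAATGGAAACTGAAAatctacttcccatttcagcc
Oas1c: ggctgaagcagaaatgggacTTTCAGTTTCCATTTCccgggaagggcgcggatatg
Oas3: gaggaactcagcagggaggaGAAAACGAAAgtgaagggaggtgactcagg

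In *Oas1a* and *Oas1g* the overlapping matches form a block of 16 bases, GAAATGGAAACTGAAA, that ends 5 and 3 bases before the start. The windows of these genes were alike beyond it, with 207 of 298 bases identical (69.5%) when aligned without gaps at the block. *Oas1c* holds the same block on its opposite strand, ending 99 bases before its own start. Since the *Oas1c* window reaches across the start of its divergent neighbour, the block also lies next to *Oas1b*, in the direction of that gene and with 6 bases between them. The block was found in 7 of the 32851 windows, the remaining 4 belonging to *Apol9a* and *Apol9b*, which had at most 12 and 27 counts in any library. The same letters near the start thus occurred in members that were called higher and in members that were not. A match is a description of the letters and not a site or a cause, and the *Oas3* match, beginning 75 bases before the start, lay between those of *Oas1a* and *Oas1g* and those of *Oas1c*.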

How the data were processed

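Smart-seq2 libraries of sorted PB neutrophils were sequenced as paired ends. The authors deposited raw counts per gene for each of the 6 libraries. The authors also deposited FPKM, which fitted the union of GENCODE M21 exons in 98.9% of 5905 well-counted genes, within 2% of a common factor. The submitters' processing notes name cutadapt 1.9, FastQC and GRCm38; the aligner, the counting and its use of strand are not given in the sources used here. The chi-square per gene between replicate libraries was 51.9 to 126.1, far beyond counting noise.

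Genes whose mean FPKM reached 1 went into a test of the counts in edgeR 4.0.16 (R 4.3.3; TMM, quasi-likelihood test, Benjamini-Hochberg over 10440 genes, adjusted p under 0.05). To obtain standard errors, the size of each log2 change was divided by the square root of F. The common biological coefficient of variation was 0.265. Members, lists and named genes were chosen with earlier results of these data known. The members were named in full, as were the tested genes that the text gives from the pathway, sensor and receptor lists; of the interferon-stimulated genes the 3 highest and 3 lowest were named, of each marker list the most abundant gene by mean FPKM, and 5 nearest profiles for each of 2 members. *Eif2ak2* and other sensors stand in 2 lists. *Gm13822* and the genes sharing the promoter block were added after the data were seen. Sums and shares over the members carry no p, since 3 against 3 libraries cannot give an exact permutation p under 0.1 and the members were not chosen independently of the results. Protein sequences were not used here. The pathway and interferon lists were shortened after the values were seen, by genes that are not reported here.

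Alternatives were library totals, totals without haemoglobin and immunoglobulin genes, DESeq2 size factors, scaling on the mature neutrophil genes, filterByExpr, a mean FPKM of at least 5, no filter, DESeq2 1.42.0, limma 3.58.1 on log2(FPKM + 1) or log2(FPKM + 0.1), a replicate block and leaving out each library. Python 3.11.15, pandas 2.3.3 and numpy 2.4.6 were used for sums, ratios and sequences.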

Additional observations from a re-analysis of the deposited data

How the results depend on the processing

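With TMM, 5601 of 10440 genes were called (2766 higher, 2835 lower). The 6 members stayed called higher in 16 of 17 alternatives, where *Oas1a* ranged from 0.97 to 1.58, *Oas1g* from 1.70 to 2.35 and *Oasl1* from 0.85 to 1.45. The exception was scaling on the mature neutrophil genes, which called 9270 genes (68 higher, 9202 lower), 0 members higher and 3 lower (*Oas1b*, *Oas1c* and *Oasl1*), with a summed FPKM difference of -0.18. *Oas1b*, negative with TMM too, went to -2.11. The signs that turned under it were -0.50 for *Prkra* (not called), -0.28 for *Oas1a*, -1.76 for *Oas1c*, -0.023 for *Oas2*, -0.40 for *Oasl1*, -0.10 for *Oasl2*, -1.59 for *Pde12*, -1.25 for *Akap7*, -1.18 for *Eif2ak2*, -1.32 for *Adar*, -0.46 for *Ifih1*, -0.94 for *Ddx58*, -0.72 for *Dhx58*, -0.87 for *Zbp1*, -1.17 for *Ifnar1*, -0.82 for *Ifnar2*, -1.29 for *Jak1*, -1.54 for *Tyk2*, -1.33 for *Stat2*, -0.68 for *Irf9*, -0.63 for *Irf7*, -0.66 for *Irf1*, -0.65 for *Usp18*, -0.021 for *Rtp4*, -0.68 for *Lyz2*, -1.79 for *Bst2*, -0.56 for *Ppbp*, -0.98 for *Ear2*, -0.14 for *Fes*, -0.079 for *Gm15448*, -0.013 for *Gsr*, -0.031 for *Ccr1* and -0.057 for *Trps1*. By construction this scaling sets the neutrophil genes to no change on average. Totals without haemoglobin and immunoglobulin genes gave -0.082 for *Adar*, -0.049 for *Jak1*, -0.54 for *Bst2*, -0.51 for *Oas1c*, -0.34 for *Pde12*, -0.0093 for *Akap7*, -0.30 for *Tyk2* and -0.090 for *Stat2*; the cause was not tested.

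The split of calls moved with the scaling, to 1919 higher and 4146 lower with library totals and 1428 and 5194 without haemoglobin and immunoglobulin genes. In limma, which changes the tool, the measure and the scaling together, it was 1981 and 4271 on log2(FPKM + 1) and 1865 and 4067 on log2(FPKM + 0.1). A mean FPKM of at least 5 left 3637 calls, with fewer genes tested (5328), and 6 of 6 members higher. Leaving out a library gave 4674 to 5385 calls, 6 members higher in each, and summed FPKM differences of 1.23 to 1.34. Same-numbered libraries did not deviate together (correlations 0.0212, 0.0562 and 0.0364), and with the replicate number as a block 5546 genes were called, 6 members higher and 0 lower.

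The design has 3 pools in each group, so p-values set the difference between groups against the spread between pools. A difference in preparation that ran along with the groups could not be told apart from ligation. *Oas1b* and *Oas1c*, at 96 to 259 counts per library, had standard errors of 0.391 and 0.430 on the log2 scale, so small differences cannot be told from 0 for them.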
